A study of Homo sapiens with 6 samples.

Results

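Genes for the enzymes that oxidise and conjugate drugs, pollutants and many hormones and lipids were followed in an RNA-seq comparison of cells labelled SW620, an established human colorectal cancer line. The genes were found by symbol alone: cytochromes P450 (CYP followed by a digit), UDP-glucuronosyltransferases (UGT1A and UGT2), sulfotransferases (SULT followed by a digit), aldehyde dehydrogenases (ALDH followed by a digit) and soluble glutathione S-transferases (GST of the classes A, M, O, P, T, Z and K). Of 20729 rows of the count table, 79 met this rule after 5 antisense symbols had been left out: 38 P450, 18 ALDH, 11 GST, 7 SULT and 5 UGT genes. Of the 79 genes, 63 had enough counts to be tested and 16 did not. The series compared 3 libraries of cells given a negative-control siRNA (siNC) with 3 libraries of cells given an siRNA against OSBPL3 (siOSBPL3), a lipid-binding protein of membrane contact sites. The labels name this single line, a tumour-derived culture, for all 6 libraries. The dose of siRNA, the time after transfection and whether replicates were separate cultures are not given in the sources used here. Each p-value sets the difference between groups against the spread of libraries within groups, and that spread may be technical variation alone.

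Foreign and endogenous lipophilic compounds are cleared in steps. Phase I enzymes, chiefly the haem-containing P450 monooxygenases of the endoplasmic reticulum and mitochondria, add or expose a reactive group, and aldehyde dehydrogenases oxidise the aldehydes that arise. Phase II enzymes then attach glutathione (GST), sulfate (SULT) or glucuronic acid (UGT), and efflux pumps export the conjugates. In the gut this system meets food compounds first, and it is tuned by ligand-activated factors such as the aryl hydrocarbon receptor AHR and by NFE2L2 (NRF2), the regulator of the antioxidant response. Many P450 and ALDH genes serve endogenous paths as well, among them retinoic acid, vitamin D, steroid, bile acid, folate and proline metabolism.

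The targeted transcript was checked first. OSBPL3 stood at 179, 174 and 175 CPM (counts per 1e6 TMM-scaled counts) in siNC replicates 1 to 3 and at 40.2, 12.2 and 15.1 CPM in siOSBPL3 (log2 fold change -2.97, SE 0.48, with an adjusted p = 0.0016 by the quasi-likelihood test of edgeR), so siOSBPL3 replicate 1 kept the most transcript. Without that library OSBPL3 was at -3.68, and after a correction of each library for the GC content and length of transcripts at -2.33. Total counts ran from 30040020 to 39701340 per library. An adjusted p under 0.05 was reached by 12437 of all 15506 tested genes (80.2%), with 40.4% higher and 39.8% lower in siOSBPL3. Every count or share below is to be read against that background. Markers of intestinal epithelium went both ways: of 12 tested, 6 rose, 3 fell and 3 did not pass, and the 14 listed genes summed to 7137 to 7214 CPM in siNC and 4995 to 6121 CPM in siOSBPL3. EPCAM, KRT8 and KRT18 were abundant in both groups. The intestinal transcription factor gene CDX2 stood at 1.15 CPM in siNC and 63.5 CPM in siOSBPL3, the brush border gene VIL1 at 482 and 62.6 CPM, CDX1 had no count in siNC, and KRT20 and CEACAM5 were under 0.5 CPM in both group means. Hepatocyte markers summed to 74.5 to 76.9 CPM in siNC and 56.5 to 68.5 CPM in siOSBPL3, nearly all of it SERPINA1, with mean ALB levels of 0.0214 and 0.0185 CPM. The other sums ran, in siNC and siOSBPL3, from 70.0 to 74.4 and from 3.19 to 5.98 CPM for 6 fibroblast markers (LUM at 60.3 CPM in siNC and without a count in siOSBPL3, at least 2262-fold lower), from 19.8 to 22.2 and from 9.46 to 13.9 for 6 leukocyte markers, and from 9.73 to 11.1 and from 6.24 to 10.7 for 4 kidney markers. They ran from 4.58 to 4.90 and from 1.29 to 2.99 for 5 airway markers, from 1.39 to 2.37 and from 0.219 to 0.803 for 3 endothelial markers and from 0 to 0.122 and from 0.278 to 0.602 for 4 adrenal and gonadal markers. The leukocyte sum in siNC was mostly CD68, at 19.0 CPM and 5.87 CPM in siOSBPL3. Of 4 leukocyte markers tested, CD68 and LYZ fell, while CD14 and ITGAM rose (log2 fold change 3.43 and 6.39). PTPRC and CD3E were at most 0.110 CPM in both group means. Of the fibroblast markers, COL3A1 had no count and DCN 5 counts in siNC. In these bulk libraries, fewer cells of a kind and less RNA per cell cannot be told apart, nor can a difference in the cells of the groups be told apart from the siRNA. The part of these markers in the results below was not tested.

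Most tested genes of the 5 enzyme families differed between the groups. Of 63, 39 rose (61.9%, against 40.4% of all genes tested), 18 fell (28.6%, against 39.8%) and 6 did not pass. A change of at least 2-fold was seen in 27 that rose and 15 that fell, against backgrounds of 24.8% and 24.1%. Values of the 2 groups did not overlap for 58 of the 63, against 83.0% of all genes tested. The median log2 fold change was 0.76, beside -0.00 over all genes tested. The genes that could be tested are those with counts in at least 1 group, so these shares do not describe all 79, and the differences from the background were not tested.

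**Figure D1:**
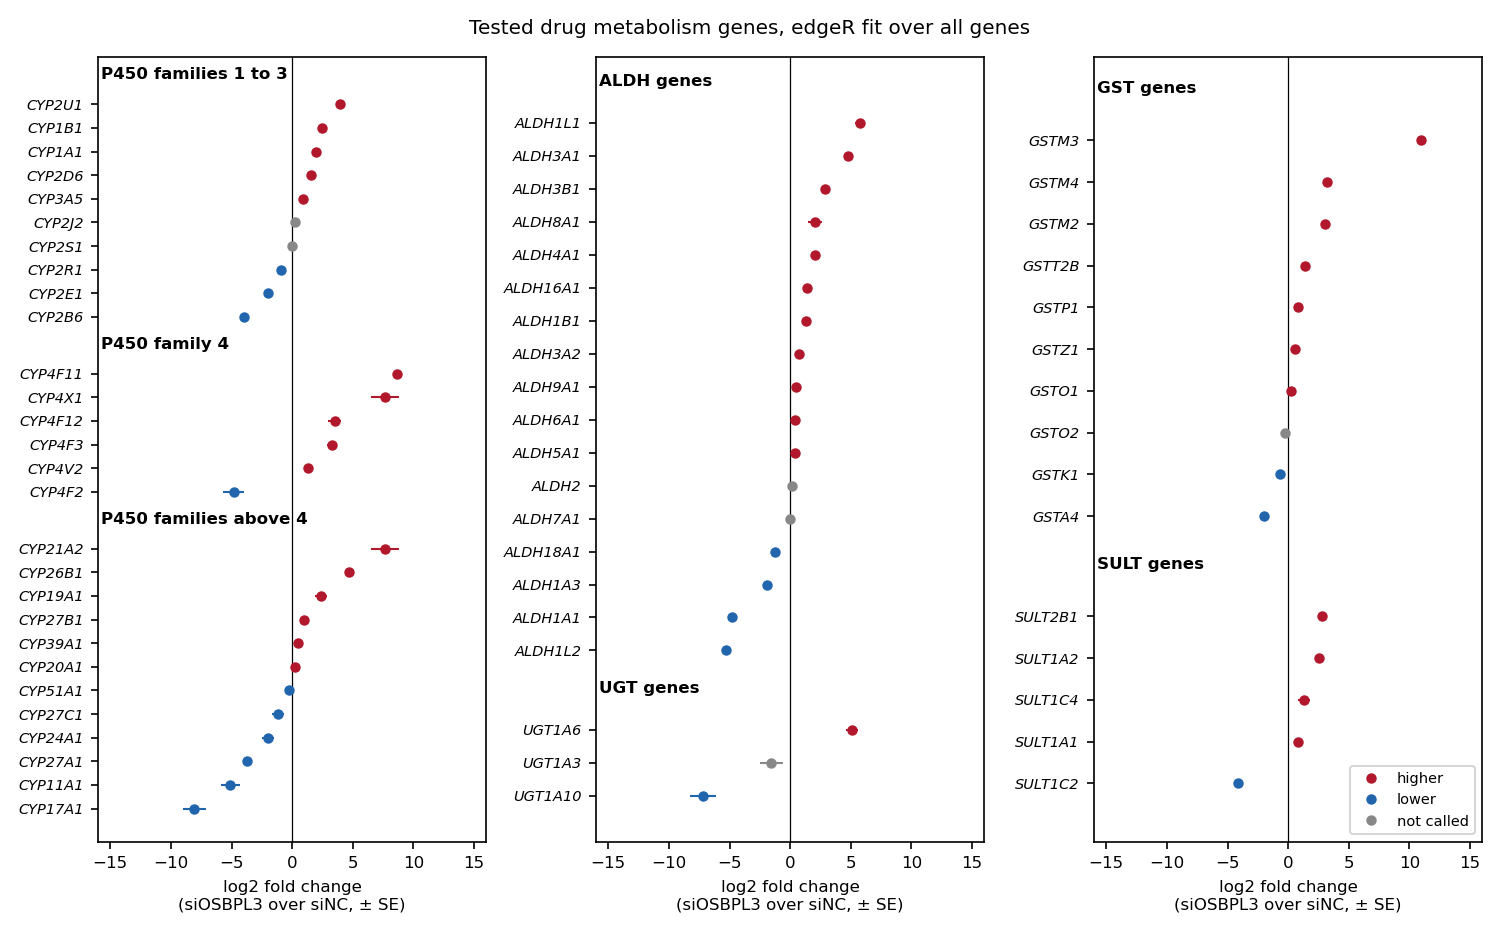
Log2 fold change of each of the 63 tested genes (x axis, siOSBPL3 over siNC; points are the edgeR estimates and bars ± SE, n = 3 libraries a group), in 7 groups of enzymes, red where higher, blue where lower and grey where not past an adjusted p of 0.05. Estimates ran from -8.07 (CYP17A1) to 10.99 (GSTM3), every group held both higher and lower genes, and values of genes without counts in 1 group depend on the prior count.

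Summed over its genes, each family but the P450s took more of the TMM-scaled counts in siOSBPL3. GSTP1, the main part of the GST sum, turned in direction with the GC and length correction (0.78 and -0.66 on the log2 scale). GST genes summed to 809, 822 and 831 CPM in siNC and to 1519, 1416 and 1472 CPM in siOSBPL3. ALDH genes summed to 751 CPM in each siNC library and to 1300, 1261 and 1197 CPM in siOSBPL3. P450 genes summed to 301, 295 and 299 CPM in siNC and to 329, 306 and 301 CPM in siOSBPL3, so that the ranges met. That near-equal P450 total was made up of different genes. Per kilobase of exon, CYP2B6 supplied 15.5% to 15.9% of the P450 sum in siNC and 0.889% to 1.15% in siOSBPL3, and CYP4F11 at most 0.0555% in siNC and at least 9.73% in siOSBPL3. CYP51A1, lanosterol demethylase of cholesterol synthesis, supplied 35.0% to 35.3% in siNC and 26.0% to 35.2% in siOSBPL3. Of its 150-base windows 88.1% also lie in an overlapping annotated gene, AC000120.2, so its counts may depend on how reads of both were treated.

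Among P450 families 1 to 3, which hold the classic drug-metabolising enzymes, 5 of 10 tested genes rose, 3 fell and 2 did not pass. The main loss was CYP2B6 (chromosome 19, 40991282 to 41018398, GRCh38.p14), which oxidises bupropion, efavirenz and cyclophosphamide. It stood at 47.7, 48.1 and 47.3 CPM in siNC and at 3.46, 3.39 and 2.55 CPM in siOSBPL3 (log2 fold change -3.93 ± 0.13, adjusted p = 1.1e-10, edgeR). All siOSBPL3 libraries lay far below all siNC libraries. CYP2E1, which oxidises ethanol and small solvents, fell from 6.06, 5.75 and 5.09 CPM to 1.63, 1.42 and 1.09 CPM (-2.03 ± 0.24). CYP2R1, the main vitamin D 25-hydroxylase, fell from 32.7 ± 0.943 to 17.1 ± 2.97 CPM (mean ± SD, n = 3 each; -0.93 ± 0.12).

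CYP2U1, a fatty acid hydroxylase, had the largest rise among the tested genes of these families, from 0.426, 0.633 and 0.472 CPM to 9.30, 7.25 and 7.13 CPM (3.94 ± 0.26). CYP3A5, the extrahepatic member of the CYP3A drug-metabolising cluster, stood at 8.10, 7.53 and 7.11 CPM in siNC and at 18.6, 10.5 and 12.3 CPM in siOSBPL3 (0.86 ± 0.20, adjusted p = 0.0015, edgeR), with replicate 1 above the other siOSBPL3 libraries. Its neighbours CYP3A7 and CYP3A4 had at most 10 counts over any group and were not tested. CYP2D6, which metabolises many antidepressants and opioids, rose from 1.07 ± 0.218 to 3.09 ± 0.960 CPM (n = 3 each; 1.53 ± 0.33). With a correction for the GC content and length of transcripts this call was lost (0.27, adjusted p = 0.44, edgeR), and 1.47% of the 150-base windows of its transcript also occur in CYP2D7. CYP2J2, an arachidonic acid epoxygenase, stood at 9.75 and 11.8 CPM and did not pass (0.27 ± 0.16, adjusted p = 0.13, edgeR). CYP2S1, which acts on retinoids and peroxides, stood at 38.5 ± 1.94 and 38.3 ± 9.17 CPM (-0.01 ± 0.15) and became -0.95 with the GC and length correction.

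The 2 tested CYP1 genes, textbook targets of AHR, rose from low levels. CYP1A1, which activates polycyclic aromatic hydrocarbons, stood at 1.22, 1.66 and 1.18 CPM in siNC and in siOSBPL3 at a mean of 5.46 ± 2.09 CPM (n = 3; 2.01 ± 0.33, adjusted p = 0.00011, edgeR), with siOSBPL3 replicate 1 nearest to siNC at 3.07 CPM. CYP1B1, which hydroxylates oestradiol and procarcinogens, rose from 0.913, 1.36 and 0.843 CPM to 4.93, 5.91 and 6.40 CPM (2.46 ± 0.27). CYP1A2 had 1 count over the siNC libraries and 10, 13 and 13 counts in siOSBPL3, a ratio of 30.7 (95% interval of the counts 5.17 to 1246), and was too low for the fit. The transcripts of AHR and of its partner ARNT moved the other way. AHR fell from 54.6 ± 1.26 to 24.7 ± 2.81 CPM (n = 3 each; -1.14 ± 0.10) and ARNT from 49.3 ± 2.24 to 21.2 ± 1.32 CPM (-1.22 ± 0.09). With the GC and length correction AHR was at -0.28 and ARNT at -1.02.

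The promoter of CYP1A1 is shown because this gene is the standard readout of AHR. It is the window from 250 bases before to 50 bases after the annotated start (chr15:74725479-74725778, minus strand, GRCh38.p14, RefSeq), written 5′ to 3′ with matches to GCGTG, the core of the AHR element, in capitals.

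CYP1A1: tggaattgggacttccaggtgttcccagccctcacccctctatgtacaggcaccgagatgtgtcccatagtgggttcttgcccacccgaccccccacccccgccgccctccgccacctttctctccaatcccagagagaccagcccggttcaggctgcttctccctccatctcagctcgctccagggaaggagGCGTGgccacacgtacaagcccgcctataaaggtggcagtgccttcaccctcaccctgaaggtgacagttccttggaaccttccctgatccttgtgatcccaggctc

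The window holds 1 match, on the strand of the gene, 57 bases before the start. GCGTG on either strand occurs in 36.3% of 27305 RefSeq promoter windows of this length and in 49.5% of the 12043 that belong to tested genes. Of 60 family members with such a window 18 hold it, 10 of 30 that rose and 3 of 15 that fell.

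P450 family 4, whose enzymes hydroxylate fatty acids, leukotrienes and vitamin K at the end of the chain, was tested in all 6 of its genes, of which 5 rose and 1 fell. CYP4F11 went from 0.183, 0.0603 and 0 CPM in siNC to 39.9, 35.7 and 29.9 CPM in siOSBPL3 (8.66 ± 0.32, adjusted p = 2.5e-10, edgeR). Its siNC level rested on 8 counts, 6 of them in replicate 1, without which the fitted value was 9.96. CYP4V2, mutated in a crystalline corneoretinal dystrophy, rose from 11.1, 11.4 and 13.7 CPM to a mean of 30.7 ± 3.49 CPM (n = 3; 1.35 ± 0.13). CYP4X1, without a firmly assigned substrate, had no count in siNC and 39, 21 and 19 counts in siOSBPL3, at least 22.5-fold higher when 3 counts are allowed for the siNC libraries together.

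The 4 CYP4F genes lie in 1 cluster of chromosome 19 (15640897 to 15934867, GRCh38.p14), in the order CYP4F3, CYP4F12, CYP4F2 and CYP4F11, and did not move together. CYP4F3, a leukotriene B4 hydroxylase, stood at 0.213, 0.482 and 0.472 CPM in siNC and at 5.48, 2.62 and 3.44 CPM in siOSBPL3 (3.30 ± 0.41). CYP4F12 rose from 0.396, 0.0301 and 0.169 CPM to 2.52, 2.02 and 2.38 CPM (3.52 ± 0.55). It was at 4.53 without siNC replicate 1 and at 2.78 with the GC and length correction. CYP4F2, a vitamin K1 and leukotriene hydroxylase, fell from 27, 12 and 18 counts to 0, 0 and 2 counts, a ratio of 33.4 with an interval from 8.84 to 283, and had no count left in siOSBPL3 without replicate 3 (fitted value -7.33 instead of -4.81). Per kilobase of exon, CYP4F2 made up 51.6% to 62.4% of the CYP4F sum in siNC and at most 0.189% in siOSBPL3, where CYP4F11 made up 87.1% to 91.2%. CYP4F2 and CYP4F11 are separated by 14303 bases, and 1.02% of the 150-base windows of CYP4F2 recur in CYP4F3.

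The promoters of these last neighbours, which moved in opposite directions, are given for comparison (chr19:15934818-15935117, minus strand, for CYP4F11 and chr19:15898025-15898324, minus strand, for CYP4F2; GRCh38.p14, RefSeq). Capitals mark matches to TGANNNNGC on either strand, and GCGTG is in neither window. TGANNNNGC is looser than the antioxidant response element bound by NFE2L2, so a match need not be such an element.

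CYP4F11: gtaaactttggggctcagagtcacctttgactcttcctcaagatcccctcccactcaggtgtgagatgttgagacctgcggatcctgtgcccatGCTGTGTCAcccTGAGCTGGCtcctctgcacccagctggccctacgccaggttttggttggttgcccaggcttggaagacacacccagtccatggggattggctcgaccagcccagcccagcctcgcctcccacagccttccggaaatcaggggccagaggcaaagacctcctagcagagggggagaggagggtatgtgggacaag

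CYP4F2: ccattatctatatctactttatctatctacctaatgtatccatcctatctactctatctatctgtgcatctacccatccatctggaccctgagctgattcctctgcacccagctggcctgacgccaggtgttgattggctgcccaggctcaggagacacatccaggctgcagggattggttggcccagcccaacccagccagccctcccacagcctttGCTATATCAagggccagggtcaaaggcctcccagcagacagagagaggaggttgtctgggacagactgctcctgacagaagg

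CYP4F11 holds 2 matches, beginning 156 and 144 bases before the start on opposite strands, and CYP4F2 holds 1, beginning 32 bases before it. Such a match is common, with 42.1% of all windows and 43.1% of those of tested genes holding it. Among family members it occurs in 11 of 30 windows of genes that rose and in 12 of 15 of genes that fell. NFE2L2 stood at 126 ± 1.98 and 136 ± 12.8 CPM and did not pass (0.11 ± 0.09, adjusted p = 0.27, edgeR), and KEAP1, the adaptor that marks NFE2L2 for degradation, rose from 22.5 ± 1.57 to 143 ± 7.64 CPM (n = 3 each; 2.67 ± 0.09, or 1.82 after that correction for GC and length).

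The P450 families above 4, which act mainly on endogenous sterols and vitamins, split evenly, with 6 of 12 tested genes higher and 6 lower. CYP26B1, which degrades retinoic acid, rose from 0.822, 0.241 and 0.573 CPM to a mean of 14.0 ± 2.22 CPM (n = 3) (4.68 ± 0.30, adjusted p = 2.8e-08, edgeR). Its relative CYP26A1 had 1, 0 and 0 counts in siNC and 1, 12 and 14 in siOSBPL3, and was not tested. The retinoid desaturase gene CYP27C1 was lower (-1.18 ± 0.50, adjusted p = 0.047, edgeR), a weak call that was lost in 7 alternative fits, with an adjusted p of 0.23 without siNC replicate 2.

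Of the vitamin D genes, CYP27A1, a mitochondrial sterol 27-hydroxylase that also makes bile acids, fell from 8.43, 9.40 and 7.86 CPM to 0.914, 0.629 and 0.404 CPM (-3.72 ± 0.28, and -4.67 with the GC and length correction). CYP24A1, which inactivates calcitriol, stood at 2.62, 2.05 and 1.92 CPM in siNC and at 1.11, 0.246 and 0.329 CPM in siOSBPL3 (-1.97 ± 0.50), and without siOSBPL3 replicate 1, the highest of its group, at -2.91. CYP27B1, which makes calcitriol, rose from 1.91 ± 0.243 to 3.76 ± 0.213 CPM (n = 3 each; 0.97 ± 0.24), a call that the GC and length correction removed (0.31, adjusted p = 0.22, edgeR). The receptor gene VDR rose from 20.7 ± 0.527 to 68.5 ± 5.47 CPM (1.73 ± 0.09).

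Steroid-forming P450 genes were low, with group means of at most 1.67 CPM. CYP11A1, the cholesterol side-chain cleavage enzyme, fell from 68, 48 and 44 counts to 5, 0 and 0 counts (-5.11 ± 0.78, and -8.84 without siOSBPL3 replicate 1, which then leaves no count). Other fits of CYP11A1 ran from -4.52 (without siOSBPL3 replicate 3) to -6.03 (GC and length correction). CYP17A1, the 17-hydroxylase, had 33, 26 and 33 counts in siNC and none in siOSBPL3, at least 36.0-fold lower. CYP21A2, the 21-hydroxylase, had no count in siNC and 19, 43 and 21 in siOSBPL3, at least 23.6-fold higher, and 17.2% of its 150-base windows also occur in the pseudogene CYP21A1P. The aromatase gene CYP19A1 stood at 0.156 ± 0.0498 and 0.848 ± 0.226 CPM (n = 3 each; 2.41 ± 0.51). Of the markers of adrenal cortex and gonad, STAR and HSD3B2 were at 0 in siNC, and the 4 listed genes summed to at most 0.122 CPM in siNC and 0.602 CPM in siOSBPL3.

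Among sterol enzymes, CYP51A1 stood at 103, 101 and 102 CPM in siNC and at 77.1, 81.2 and 96.3 CPM in siOSBPL3 (-0.26 ± 0.09, adjusted p = 0.020, edgeR). This small difference was lost without siNC replicate 1 (adjusted p = 0.055, edgeR) or siOSBPL3 replicate 2 (adjusted p = 0.068), and turned to 0.08 with the GC and length correction. CYP39A1, an oxysterol 7-hydroxylase, was higher (0.52 ± 0.19, adjusted p = 0.024, edgeR), a call lost when siNC replicate 1 (adjusted p = 0.11) or 2 (0.079) or siOSBPL3 replicate 2 (0.078) was left out. CYP20A1, which has no known substrate, was higher by 0.28 ± 0.11 (adjusted p = 0.029, edgeR) and lost this call in DESeq2 (adjusted p = 0.051) and without siNC replicate 1, 2 or 3 (adjusted p from 0.065 to 0.13). CYP7A1, the rate-limiting enzyme of classic bile acid synthesis, had no count in any library, and the brain enzyme gene CYP46A1 had 10 counts over all 6.

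**Figure D2:**
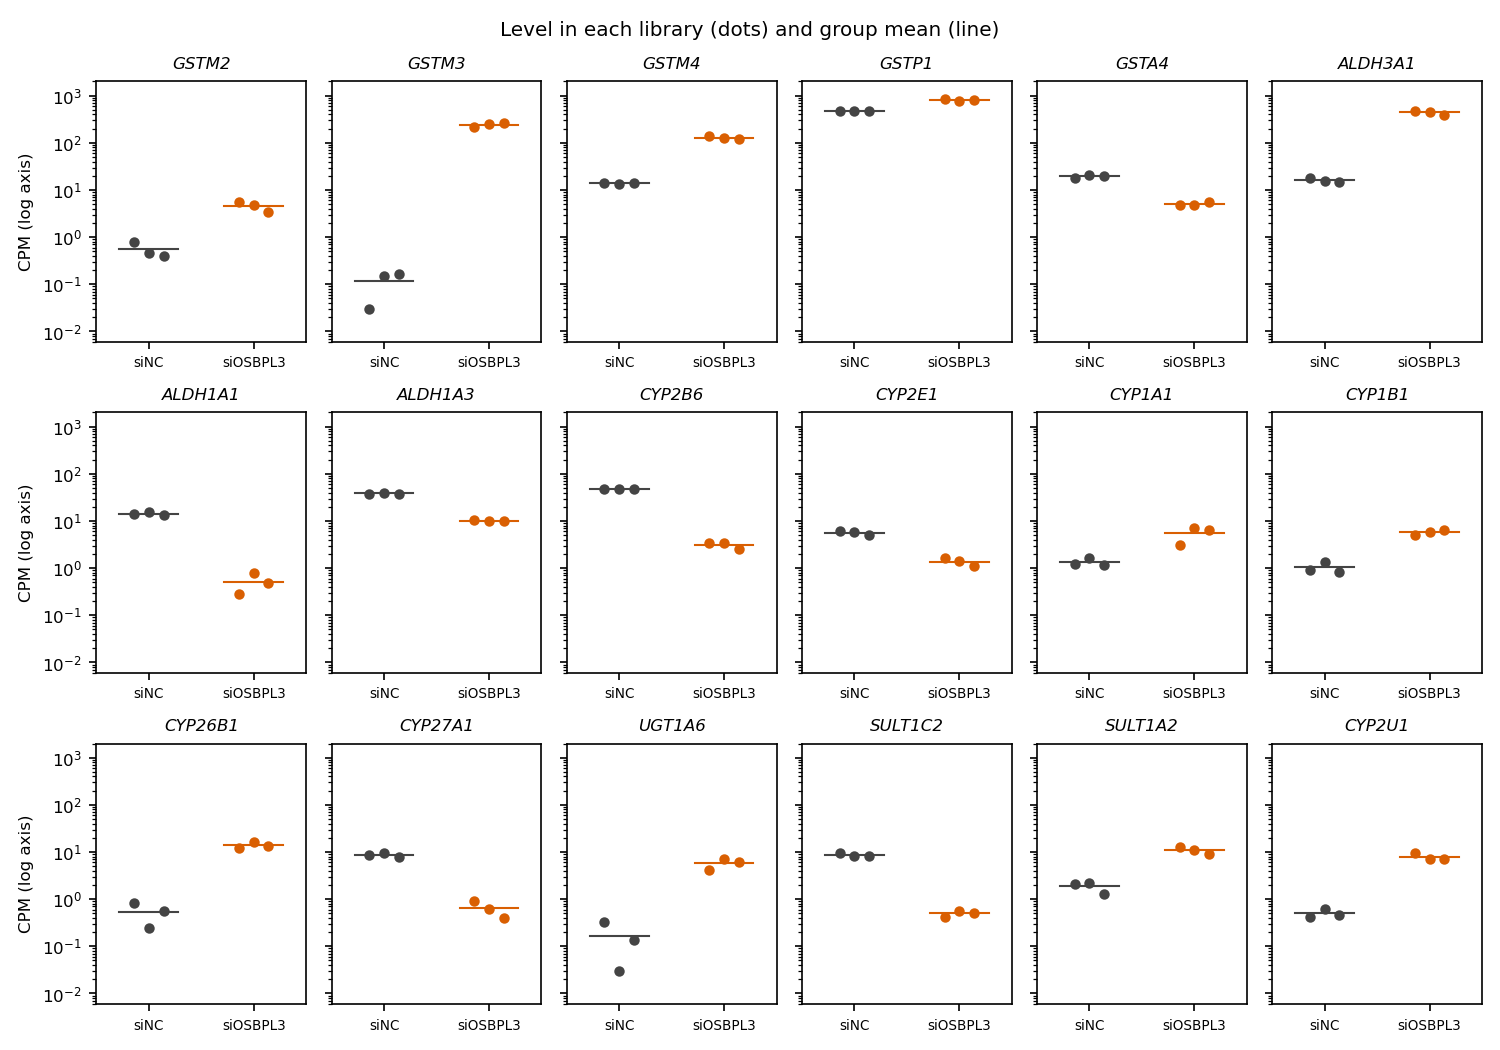
CPM of 18 named genes in each library (y axis, log scale; dots are libraries, lines the means of n = 3, siNC in grey and siOSBPL3 in orange). The genes were taken from those whose groups do not overlap, so the separation in each panel was set by that choice. Groups do not overlap for 83.0% of all genes tested. Levels run from GSTP1 at 467 to 861 CPM to GSTM3, whose siNC libraries sit at 0.0304 to 0.169 CPM.

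Aldehyde dehydrogenase genes rose in 11, fell in 4 and did not pass in 2 of 17 tested cases. ALDH3A1, which clears aromatic and lipid aldehydes and is another textbook AHR and NFE2L2 target, rose from 18.4, 15.7 and 14.9 CPM to 485, 451 and 389 CPM (4.76 ± 0.13, adjusted p = 1.8e-11, edgeR). With the GC and length correction it was at 3.69. Per kilobase of exon its share of the ALDH sum went from 2.74% to 3.38% in siNC to 40.0% to 46.2% in siOSBPL3. Its neighbour ALDH3A2, the fatty aldehyde dehydrogenase, lies 60388 bases away on chromosome 17 and rose less, from 97.2 ± 0.511 to 164 ± 6.14 CPM (n = 3 each; 0.76 ± 0.08). ALDH3B1, a plasma membrane relative, rose from 2.86, 4.52 and 3.74 CPM to 34.5, 26.9 and 22.2 CPM (2.91 ± 0.20, and 1.99 with the correction).

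The retinoic acid-forming ALDH1A genes fell. ALDH1A1, widely used as a stem-cell marker in colorectal tumours, went from 14.3, 15.5 and 13.1 CPM to 0.277, 0.793 and 0.480 CPM (-4.78 ± 0.27, adjusted p = 9.5e-09, edgeR). ALDH1A3 fell from 36.6, 40.2 and 38.1 CPM to 10.4, 10.0 and 10.0 CPM (-1.91 ± 0.10). ALDH1A2 had a single count in the table and was not tested. Beside these falls stood the rise of CYP26B1, so that transcripts of ALDH1A1 and ALDH1A3 were lower where that of CYP26B1 was higher. These are transcript levels only, and any effect on retinoic acid was not tested. Of the retinoic acid receptor genes, RARA (0.77 ± 0.17) and RARG (1.59 ± 0.12) rose, with RARA at -0.27 and RARG at 0.75 after the GC and length correction.

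Genes for enzymes of the same reaction in different compartments moved in opposite directions. ALDH1L1 and ALDH1L2 are the cytosolic and the mitochondrial form of 10-formyltetrahydrofolate dehydrogenase, which returns formyl groups of the folate pool to carbon dioxide. ALDH1L1 rose from 7, 2 and 2 counts to 308, 218 and 200 counts (5.78 ± 0.43, adjusted p = 9.3e-08, edgeR), and was at 6.60 without siNC replicate 1 and 5.09 with the GC and length correction. ALDH1L2 fell from 24.1, 25.7 and 20.6 CPM to 1.27, 0.219 and 0.354 CPM (-5.26 ± 0.39, adjusted p = 3.6e-07, edgeR), and was at -6.32 without siOSBPL3 replicate 1 and -4.58 with the correction. Of the level of the pair per kilobase of exon, ALDH1L1 made up 0.145% to 0.545% in siNC and 80.6%, 94.4% and 89.9% in siOSBPL3 replicates 1 to 3.

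Opposed changes were seen in proline metabolism too. ALDH18A1, the enzyme that starts proline synthesis from glutamate, fell from 166, 163 and 161 CPM to 61.5, 69.5 and 71.2 CPM (-1.28 ± 0.08). ALDH4A1, which carries proline breakdown back to glutamate, rose from 6.51, 6.12 and 7.15 CPM to 29.1, 26.5 and 25.8 CPM (2.04 ± 0.12, and 1.22 with the correction). ALDH18A1 stayed the more abundant of the pair per kilobase of exon, at 95.7% to 96.3% of their sum in siNC and 67.4% to 73.0% in siOSBPL3. Of the windows of ALDH4A1, 38% also lie in an overlapping annotated gene, AL080251.1.

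The other aldehyde dehydrogenases moved little or rose moderately. ALDH2, the mitochondrial acetaldehyde dehydrogenase, stood at 122 ± 2.79 and 138 ± 6.40 CPM (n = 3 each) and narrowly missed the threshold (0.18 ± 0.08, adjusted p = 0.051, edgeR). It passed in 6 alternative fits, among them the GC and length correction at 0.64. ALDH7A1, of lysine breakdown, stood at 105 and 104 CPM (-0.03 ± 0.08). ALDH1B1, a mitochondrial form found in colonic crypts, rose from 28.1 ± 2.19 to 69.3 ± 8.99 CPM (1.30 ± 0.11), and ALDH9A1, of carnitine synthesis, from 71.9 ± 0.728 to 101 ± 7.66 CPM (0.49 ± 0.08). ALDH16A1 rose by 1.42 ± 0.14 but not after correction for GC and length (0.28, adjusted p = 0.052, edgeR). ALDH5A1, of GABA breakdown, and ALDH6A1, of valine breakdown, were higher by 0.40 ± 0.10 and 0.41 ± 0.11. ALDH8A1, of kynurenine metabolism, was under 1 CPM in every library and higher by 2.06 ± 0.60, or by 3.18 without siNC replicate 1.

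Glutathione S-transferase genes rose in 7, fell in 2 and did not pass in 1 of 10 tested cases, a split that depended on the scaling: after correction for GC and length 3 rose, 4 fell and 3 did not pass. The 3 tested genes of the mu class were those that rose in both fits. GSTM3 went from 1, 5 and 5 counts (0.0304, 0.151 and 0.169 CPM) in siNC to 214, 246 and 265 CPM in siOSBPL3, which is 10.99 ± 0.22 on the log2 scale (adjusted p = 2.3e-12, edgeR). GSTM4 rose from 14.0, 13.2 and 14.3 CPM to 143, 126 and 120 CPM (3.23 ± 0.10). GSTM2 rose from 0.792, 0.452 and 0.405 CPM to 5.70, 4.70 and 3.39 CPM (3.05 ± 0.35). GSTM1, a gene often deleted in people, had 0, 0 and 1 counts in siNC and 2 in each siOSBPL3 library. Per kilobase of exon, GSTM4 made up 96.3% to 96.6% of the mu class in siNC, and GSTM3 63.7% to 72.4% of it in siOSBPL3. GSTM1 and GSTM2 share 32.6% and 34.7% of their 150-base windows with other genes, whereas GSTM3 and GSTM4 share none, so that the levels of the latter are the more certain.

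The mu class genes are neighbours on chromosome 1 (109656099 to 109741038, GRCh38.p14) in the order GSTM4, GSTM2, GSTM1 and GSTM3. The promoters of the 3 that rose are shown as a set of neighbours that moved the same way (chr1:109655849-109656148, plus strand, for GSTM4, chr1:109667807-109668106, plus strand, for GSTM2 and chr1:109740989-109741288, minus strand, for GSTM3; GRCh38.p14, RefSeq). Capitals mark GCGTG and TGANNNNGC on either strand.

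GSTM4: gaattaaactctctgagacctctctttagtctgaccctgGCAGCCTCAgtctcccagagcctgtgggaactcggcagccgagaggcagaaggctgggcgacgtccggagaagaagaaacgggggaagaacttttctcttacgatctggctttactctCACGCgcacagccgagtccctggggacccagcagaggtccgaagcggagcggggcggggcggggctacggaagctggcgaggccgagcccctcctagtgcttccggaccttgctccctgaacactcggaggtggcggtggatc

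GSTM2: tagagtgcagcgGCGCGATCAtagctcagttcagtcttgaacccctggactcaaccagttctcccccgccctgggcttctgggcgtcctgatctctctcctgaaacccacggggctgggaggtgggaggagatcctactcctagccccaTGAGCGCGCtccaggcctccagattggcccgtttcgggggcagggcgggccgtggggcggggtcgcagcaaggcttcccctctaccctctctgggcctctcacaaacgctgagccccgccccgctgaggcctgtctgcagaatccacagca

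GSTM3: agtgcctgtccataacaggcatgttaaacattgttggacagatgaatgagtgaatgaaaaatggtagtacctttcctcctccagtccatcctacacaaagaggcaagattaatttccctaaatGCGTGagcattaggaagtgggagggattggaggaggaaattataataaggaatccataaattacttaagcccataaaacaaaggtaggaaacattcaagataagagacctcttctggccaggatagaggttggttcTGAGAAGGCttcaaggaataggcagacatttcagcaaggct

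GSTM4 holds GCGTG 93 bases and the loose pattern TGANNNNGC 211 bases before the start. GSTM2 holds TGANNNNGC 238 and 101 bases before the start and no GCGTG. GSTM3 holds GCGTG 127 bases before the start and TGANNNNGC at base 10 of the transcript. The positions and strands differ between the 3 windows, and the shares of all promoters with each motif are those given above.

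GSTP1, the pi-class enzyme and the dominant glutathione S-transferase of epithelial tumours, stood at 467, 472 and 479 CPM in siNC and at 861, 774 and 799 CPM in siOSBPL3 (0.78 ± 0.08, adjusted p = 1.2e-06, edgeR). After correction for GC and length the direction turned (-0.66, adjusted p = 3.5e-06). The GC content of its transcript is 63.7%, beside a median of 49.5% over tested genes. It supplied 69.9% to 70.7% of the GST level per kilobase in siNC and 70.5% to 73.3% in siOSBPL3. GSTZ1, of tyrosine breakdown, likewise went from 0.54 ± 0.12 to -0.26 with the correction, GSTO1 from 0.25 ± 0.08 to -0.05 and GSTT2B from 1.38 ± 0.24 to 0.53 (adjusted p = 0.056, edgeR). GSTT2B shares 68.4% of its windows with its copy GSTT2, so its level is uncertain. GSTO1 also missed the threshold without siNC replicate 3 (adjusted p = 0.058).

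GSTA4 and GSTK1 fell. GSTA4, which conjugates the lipid peroxidation product 4-hydroxynonenal, went from 18.2, 20.7 and 19.7 CPM to 4.87, 4.79 and 5.49 CPM (-1.95 ± 0.13, adjusted p = 4.1e-08, edgeR). GSTK1, the mitochondrial and peroxisomal form, went from 148, 150 and 155 CPM to 98.3, 92.0 and 97.6 CPM (-0.66 ± 0.08, and -1.49 with the correction). GSTO2, the dehydroascorbate reductase next to GSTO1 on chromosome 10, stood at 61.9 ± 1.30 and 53.0 ± 8.81 CPM (n = 3 each) and did not pass (-0.22 ± 0.11, adjusted p = 0.078, edgeR). It was lower without siOSBPL3 replicate 1 (-0.36, adjusted p = 0.00035).

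Of the 5 sulfotransferase genes tested, 4 rose and 1 fell. SULT1C2, active in gut and kidney, fell from 9.47, 8.10 and 8.29 CPM to 0.415, 0.574 and 0.506 CPM (-4.10 ± 0.24, adjusted p = 1.1e-08, edgeR). Its neighbour SULT1C4, 68039 bases away on chromosome 2, stood at 0.426, 0.392 and 0.539 CPM in siNC and at 0.637, 1.61 and 1.11 CPM in siOSBPL3 (1.31 ± 0.46, adjusted p = 0.021, edgeR). That call was lost without siNC replicate 1 (adjusted p = 0.068) or 2 (0.077) and without siOSBPL3 replicate 2 (0.092). SULT1A2, a phenol sulfotransferase, rose from 2.13, 2.23 and 1.28 CPM to 13.0, 11.2 and 9.23 CPM (2.56 ± 0.23, and 1.70 with the GC and length correction). SULT1A1, its abundant neighbour, stood at 17.5, 21.0 and 17.3 CPM in siNC and at 44.9, 28.0 and 24.8 CPM in siOSBPL3 (0.81 ± 0.19), and at -0.14 with the correction. SULT2B1, which sulfates cholesterol and hydroxysteroids, rose from 0.609, 1.27 and 0.674 CPM to 6.34, 5.33 and 6.52 CPM (2.83 ± 0.30, and 1.75 with the correction). SULT1B1, an intestinal phenol and thyroid hormone sulfotransferase, had 10 counts in siNC and 1 in siOSBPL3, and SULT4A1 had a single count.

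Glucuronosyltransferase genes were barely expressed, with summed levels of 1.04 to 1.75 CPM in siNC and 4.32 to 7.60 CPM in siOSBPL3. UGT1A6, which conjugates small phenols, rose from 0.335, 0.0301 and 0.135 CPM to 4.18, 7.08 and 6.22 CPM (5.09 ± 0.48, adjusted p = 8.7e-07, edgeR), and was at 6.12 without siNC replicate 1. UGT1A10, a form of the gut outside the liver, had 20, 13 and 18 counts in siNC and none in siOSBPL3, at least 19.9-fold lower. UGT1A3 stood at 0.456 ± 0.343 and 0.155 ± 0.201 CPM (n = 3 each) and did not pass (-1.54 ± 0.97, adjusted p = 0.16, edgeR), except without siOSBPL3 replicate 2 (-3.39, adjusted p = 0.039). UGT1A8 had 17 counts in siNC and 8 in siOSBPL3, and UGT2B17, the only UGT2 gene in the table, a single count. UGT1A genes are made by joining different first exons to the same later exons, and in GENCODE 29 transcripts 57.3% to 72.8% of their 150-base windows recur in other genes. How the counting treated reads of the common exons is not given in the sources used here, so these levels are uncertain.

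**Figure D3:**
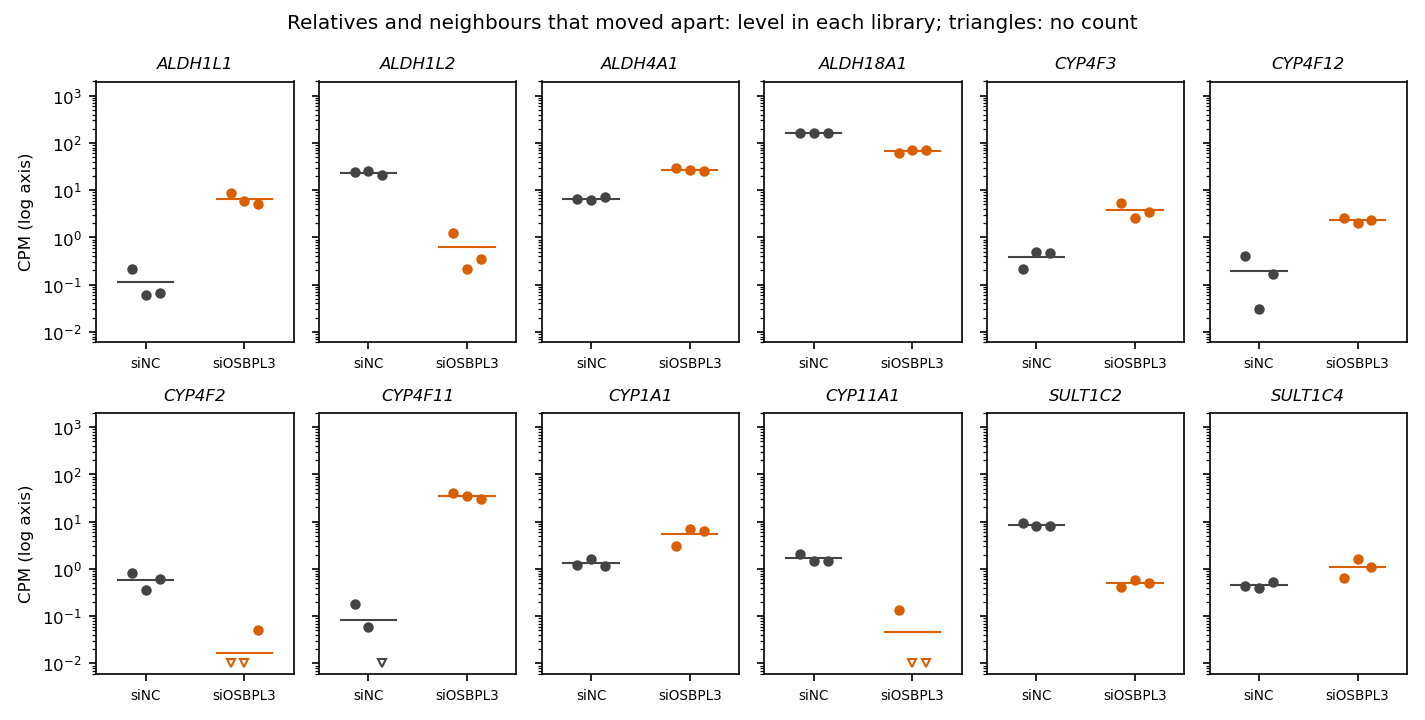
CPM in each library (y axis, log scale; dots are libraries, lines the means of n = 3, open triangles libraries with no count, siNC in grey and siOSBPL3 in orange) of related or neighbouring genes that moved in opposite directions. ALDH1L1 against ALDH1L2, CYP4F11 against CYP4F2, CYP1A1 against CYP11A1 and SULT1C4 against SULT1C2 rose and fell respectively, while ALDH4A1 rose and ALDH18A1 fell.

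The neighbouring genes were compared over 12 groups of family members that lie within 500000 bases of each other. On chromosome 15 CYP11A1 fell while CYP1A1, 351896 bases away, rose. On chromosome 19 CYP2B6 fell while CYP2S1, 174821 bases away, did not pass. Beside the GSTM genes, ALDH3A1 with ALDH3A2, SULT1A1 with SULT1A2 and GSTP1 with ALDH3B1 rose together in the uncorrected fit. These groups are a description of position, with no test.

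Of 22 tested regulators of drug metabolism genes, 13 were higher (59.1%), 6 lower (27.3%) and 3 did not pass. Over all genes tested, 40.4% were higher and 39.8% lower. The median log2 fold change of the list was 1.45, beside -0.00 over all genes. FOXA1, a pioneer factor of endodermal tissue, was without a count in every siNC library and reached 45.0, 50.3 and 50.8 CPM in siOSBPL3, at least 1555-fold higher. Its relatives went the other way. FOXA2 fell from 57.2 ± 1.49 to 7.51 ± 0.747 CPM (-2.93 ± 0.11) and FOXA3 from 13.6 ± 0.438 to 8.16 ± 1.73 CPM (-0.73 ± 0.16). NR5A2, a nuclear receptor of bile acid synthesis genes, rose from 1 count to 1.21 ± 0.304 CPM, a ratio of 116 with an interval from 20.5 to 4613. HNF4A, which sustains P450 expression in liver and gut, fell from 92.1 ± 2.26 to 39.1 ± 3.23 CPM (-1.24 ± 0.09), and PPARG by 2.56 ± 0.12 on the log2 scale. NR1I3 (CAR), the inducer of CYP2B6 in liver, had 1 count in siNC and none in siOSBPL3. NR1I2 (PXR), the inducer of CYP3A4, had no row under that symbol in the count table.

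Genes listed as electron donors or partners of the P450s rose in 7 of 9 cases (77.8%) and fell in 1 (11.1%). Over all genes tested the shares were 40.4% and 39.8%, and the list median was 1.04. PGRMC1 and PGRMC2 are counted as partners: PGRMC1 did not pass and PGRMC2 rose (1.44 ± 0.09). POR, the reductase that supplies every microsomal P450, rose from 33.8 ± 1.80 to 158 ± 9.94 CPM (n = 3 each; 2.23 ± 0.09, and 1.25 with the GC and length correction). FDX2, a mitochondrial ferredoxin, rose by 2.38 ± 0.13 and the cytochrome b5 reductase gene CYB5R3 by 1.65 ± 0.10, or by 1.10 and 0.93 with the correction. FDX1, the other ferredoxin gene listed, rose only by 0.41 ± 0.11 (0.72 with the correction). The ferredoxin reductase gene FDXR rose by 1.04 ± 0.11 but was at -0.23 with the correction. CYB5B, of the mitochondrial outer membrane, fell from 618 ± 6.11 to 373 ± 18.5 CPM (-0.73 ± 0.08). Genes for the makers and carriers of conjugation cosubstrates rose in 7 (70.0%) and fell in 3 (30.0%) of 10 cases (median 0.58). PAPSS2, which makes the sulfate donor, rose by 2.30 ± 0.16 and GCLM, of glutathione synthesis, by 1.79 ± 0.08 (2.54 with the correction), while SLC35D1, a carrier of UDP-glucuronic acid, fell by 1.47 ± 0.19 (-0.85 with the correction).

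Other phase I enzymes rose in 15 (71.4%), fell in 2 (9.52%) and did not pass in 4 of 21 cases (median 1.58). Over all genes tested, 40.4% rose and 39.8% fell. MAOB, a monoamine oxidase, rose from 0.134 ± 0.0957 to 49.4 ± 10.3 CPM (n = 3 each; 8.47 ± 0.28) and CBR3, a carbonyl reductase of anthracyclines, from 0.0765 ± 0.0854 to 29.2 ± 1.27 CPM (8.57 ± 0.31, and 7.52 with the correction). PON3, a lactonase, fell from 123 counts over the siNC libraries to 1 count over siOSBPL3, a ratio of 144 with an interval from 25.4 to 5743. Other phase II enzymes rose in 6 (66.7%), fell in 1 (11.1%) and did not pass in 2 of 9 cases (median 0.88). HNMT, which methylates histamine, rose by 3.79 ± 0.27 (4.51 with the correction), and the microsomal glutathione S-transferases MGST1 (1.16 ± 0.11), MGST2 (2.47 ± 0.12) and MGST3 (1.14 ± 0.09), unrelated in sequence to the soluble forms above, all rose.

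Drug transporters rose in 11 (57.9%) and fell in 8 (42.1%) of 19 cases (median 0.65). Over all genes tested the shares were 40.4% and 39.8%, so the share that fell was near the background. ABCG2, the efflux pump known as breast cancer resistance protein, rose from 0.114 ± 0.0909 to 6.99 ± 0.954 CPM (n = 3 each; 5.88 ± 0.40), and SLC47A1, which extrudes organic cations, from 0.112 ± 0.0748 to 11.4 ± 0.671 CPM (6.59 ± 0.32). ABCB1, the P-glycoprotein gene, rose from 34.1 ± 1.88 to 99.5 ± 22.5 CPM (1.55 ± 0.14), whereas ABCC2, which exports conjugates, fell from 117 ± 4.04 to 57.8 ± 6.27 CPM (-1.02 ± 0.09). SLC15A1, the intestinal peptide carrier, fell from 108 counts over the siNC libraries to 4 over siOSBPL3 (-4.86 ± 0.86).

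Libraries of a group differed more in siOSBPL3 than in siNC. The median coefficient of variation of family members with at least 5 CPM in the group was 4.88% in siNC (33 genes) and 11.9% in siOSBPL3 (39 genes). In 25 of those 39 genes siOSBPL3 replicate 1, the library with the most OSBPL3 left, lay farthest from the mean of the other siOSBPL3 libraries, against 5 for replicate 2 and 9 for replicate 3. In siNC the corresponding counts were 8, 11 and 14 of 33. The part of the remaining OSBPL3 transcript in these differences was not tested.

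**Figure D4:**
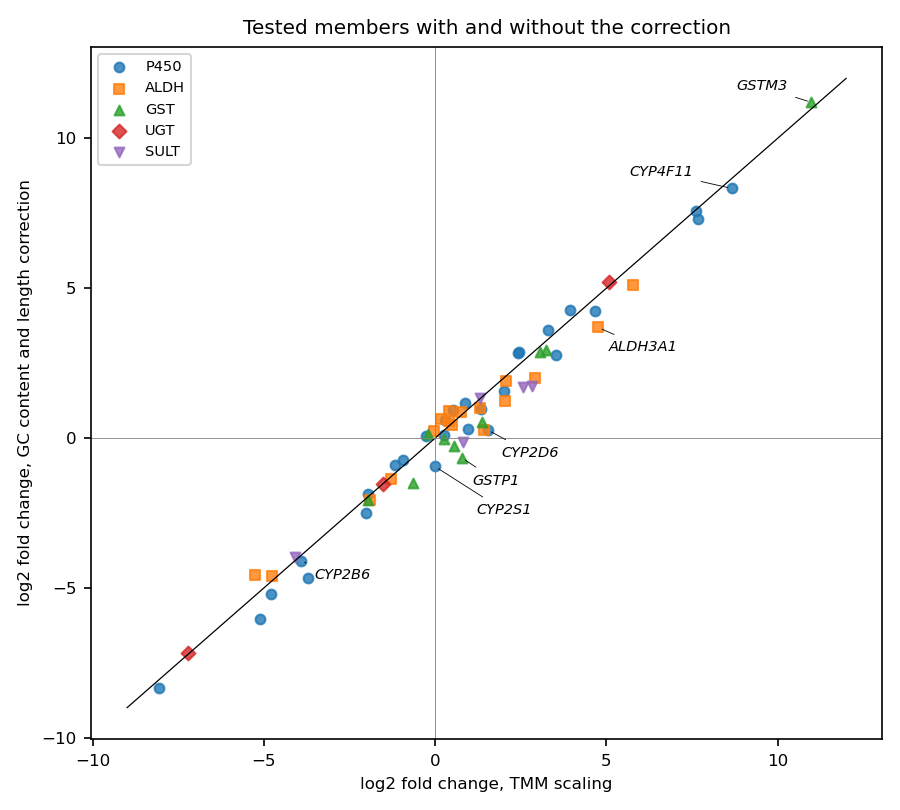
Log2 fold change of each tested gene with TMM scaling (x axis) and with a smooth correction of each library for transcript GC content and length (y axis), markers by family and the line marking equal values. GSTM3, CYP4F11 and CYP2B6 lie near the line, ALDH3A1 moved from 4.76 to 3.69, CYP2D6 from 1.53 to 0.27, CYP2S1 from -0.01 to -0.95 and GSTP1 from 0.78 to -0.66.

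The members without a test held few counts. Beyond those named above, they included CYP2C18 (13 counts over all libraries, 11 of them in siOSBPL3 replicate 3), CYP2C19 (4 counts), which metabolises proton pump inhibitors, and CYP2W1, a P450 known from fetal colon and colorectal tumours. CYP2W1 had 8, 1 and 7 counts in siNC and 0, 0 and 1 in siOSBPL3, a ratio of 18.8 with an interval from 2.92 to 787. CYP3A4, the principal drug-metabolising P450 of liver and small intestine, had 1 count in each group. At this depth, 3 counts over a group are worth 0.0313 CPM for siNC and 0.0267 CPM for siOSBPL3. Intervals and floors cover counting error only.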

How the data were processed

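RNA-seq of 6 libraries labelled SW620 was used. The authors deposited 1 table of raw counts per gene symbol. Per the submitters' processing notes, HISAT2 2.2.1, HTSeq 0.13.5 and GRCh38 (hg38) were used. The annotation, strand setting and treatment of shared reads are not given in the sources used here.

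Genes with too few counts were left out with filterByExpr (minimum count 10, minimum total 15), counts were scaled by TMM, and siOSBPL3 was compared with siNC by the quasi-likelihood test of edgeR 4.0.16 (R 4.3.3) on all 15506 remaining genes, with Benjamini-Hochberg adjustment and a threshold of 0.05. No replicate block was used. The fit was tested on simulated data with few changed genes and a single dispersion, where 4.01% of calls were false. In the real data 80.2% of tested genes were called and spread differed between the groups, so that figure need not hold here. Where a group had no count, a fold is a lower bound against 3 counts over the group; with 1 to 3 counts a ratio is given with its exact 95% counting interval. CPM per kilobase used GENCODE 29 exon lengths. Replicate libraries differed by more than sampling noise and were all kept. Positions and promoters came from the RefSeq tables of GRCh38.p14, in which all 79 genes had a position and 60 a promoter. Motifs were searched on both strands. Besides GCGTG and TGANNNNGC they included CAAAGTCCA (HNF4A) and AGTTCA (PXR), held by 1 and 9 of the 60 windows and by 0.359% and 10.5% of all windows. Protein sequences were not used here.

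Genes named by rule were OSBPL3, called members with at least 1 CPM and no overlap by size of change (up to 12 P450, 7 ALDH, 7 GST, 5 UGT and 4 SULT), members with at least 50 CPM, and 3 genes of each of 6 pathway lists; some of these genes are not reported here. All other genes, and the pairs set side by side, were chosen after their values were seen. Members, lists and tests were chosen with earlier results of these data known. Alternatives were DESeq2 1.42.0, limma-voom 3.58.1, scaling by RLE factors or by totals alone, testing every gene or those averaging 5 CPM or more, a stricter threshold of 0.01, a replicate block, each library left out, and a smooth correction of each library for GC content and length (mgcv 1.9.3), fitted on 14433 genes with a GENCODE 29 match.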

Additional observations from a re-analysis of the deposited data

How the results depend on the processing

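With RLE factors all 63 tested genes kept direction and call, with DESeq2 and limma-voom 62 each. With a mean of at least 5 CPM, which leaves 36 genes to test, 23 members were higher and 9 lower, beside 39 and 18. The GC and length correction kept 49 of 63 verdicts and turned the sign of GSTP1 (-0.66), GSTZ1 (-0.26), SULT1A1 (-0.14), GSTO1 (-0.05), CYP51A1 (0.08), GSTO2 (0.12) and ALDH7A1 (0.24); the cause was not tested. ALDH7A1 and CYP2S1, which did not pass, also changed sign with library totals (0.02 and 0.04), and CYP2S1 without a filter (0.00) and with the 5 CPM minimum (0.00). Leaving out 1 library at a time gave CYP2S1 values from -0.12 to 0.18 and ALDH7A1 values from -0.04 to 0.00, and counts of 37 to 42 members higher and 16 to 18 lower. Replicate numbers did not pair the libraries: deviations of same-numbered libraries correlated at -0.00609, -0.00875 and -0.00433. With the replicate block 37 members were higher and 19 lower, OSBPL3 was at -3.16, SULT1C4 (adjusted p = 0.056, edgeR) and CYP20A1 (adjusted p = 0.068) lost their calls and GSTO2 (adjusted p = 0.038) gained one.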
